A study of Mus musculus with 12 samples.

Results

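The genes described here are 87 mouse genes that the deposited tables list under a RIKEN clone name (a number and letter code ending in Rik) and that collected at least 50 ORFtag insertions in unsorted cells. They were chosen from the 20409 genes of the deposited activator screen table, which lists 442 Rik genes, 88 of them with at least 50 background insertions. D630045J12Rik, with 57 background insertions, passed that limit and was set aside by name, as was 1700102P08Rik, which has 27. Because D630045J12Rik was left out with its activator result known, the number of activator hits among the 87 is partly fixed by the choice. The background count chose the genes and is therefore given as a description without a test. Just inside the limit lie 6430571L13Rik with 50 insertions and 1700001K19Rik and A730049H05Rik with 52 each, and just outside lie 4931406C07Rik, 4931406P16Rik and 4932438A13Rik with 48 each.

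All libraries came from diploid mouse embryonic stem cells derived from the originally haploid HMSc2 line AN3-12, wild type apart from a reporter and, in the PTGR line, a retroviral CreERT2 transgene, and each screen used 1 clonal reporter line, so that line and screen cannot be told apart. In the activator screen the tag was the DNA-binding protein TetR, the reporter was 7xTetO-pMYLPF-Puro-IRES-GFP at the Chr15 locus, and GFP-high cells were sorted. In the repressor screen the tag was also TetR, the reporter was pEF1-BFP-7xTetO-pPGK-Puro-IRES-GFP at the same locus, and GFP-low cells were sorted. The PTGR screen, which looks for post-transcriptional regulators, used the RNA-binding λN peptide as the tag. Its reporter was a randomly integrated Puro-IRES-GFP-10xBoxB, and cells passed repeated sorts for low GFP before the boxB sites were removed by Cre and GFP-high cells were kept. Each screen had 2 sorted and 2 unsorted libraries, 12 in all, and the lists hold positions and no expression values, so the labelled cell type was not checked. Within 200 kb of an assigned exon the sorted libraries held from 14705 insertions (activator replicate 2) to 60980 (PTGR replicate 1), and the unsorted libraries from 54088 (PTGR replicate 2) to 233799 (PTGR replicate 1).

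In ORFtag a retroviral cassette with its own promoter makes a transcript in which the tag is spliced to the next acceptor downstream, so that a fusion with the nearby endogenous protein forms. An insertion is therefore credited to the nearest non-first exon downstream of it on the same strand. A gene gains sorted over background insertions when its fusion moves the reporter, whereas a gene whose fusion does nothing keeps only the insertions that chance sorting brings along. Rik names mark transcripts first found by cDNA sequencing, and many of these genes have since been given a human counterpart with an equally uninformative name. RefSeq gave 41 of the 87 a product named after a human open reading frame (such as C19orf12), and 74 of the 87 were matched to a RefSeq gene through GENCODE. Of these, 2 have another symbol in RefSeq, Elapor1 for 5330417C22Rik and Pramel17 for B020004J07Rik.

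The sequences that decide what a fusion can contain are the splice acceptors to which the insertions were assigned. The windows below are shown for the genes on which the results turn. They run 5′ to 3′ over the last 20 intronic and the first 10 exonic bases on the gene's strand, read from the RefSeq GRCm38 genome, with the terminal AG of the intron in capitals.
4930522L14Rik, exon 2, chr5:109739316-109739345, minus strand: acatgtatggaatattttAGgatgcattga
2610021A01Rik, exon 2, chr7:41611656-41611685, plus strand: actcctcaattccttaatAGatcctaaaca
E330021D16Rik, exon 2, chr6:136401877-136401906, minus strand: gataatacatttttgatcAGgcgtcttgcc
4930432M17Rik, exon 2, chr3:121671295-121671324, plus strand: tttctgatccctgactgcAGacatggtgtc
5730522E02Rik, exon 2, chr11:25986803-25986832, minus strand: tttctccttttgaattacAGacatatgaga
1700016H13Rik, exon 2, chr5:103655047-103655076, minus strand: gcctgtcgctgttctttcAGgcaaagtgca
1810013L24Rik, exon 2, chr16:8831301-8831330, plus strand: tcccccctttttgtttccAGaccgagtgtg
1600014C23Rik, exon 2, chr17:45733113-45733142, minus strand: ccaccccctctttcctacAGgtccttttgg
4930432K21Rik, exon 3, chr8:84159425-84159454, plus strand: tacttccctctctaaatcAGgggtcggcct
All 86 leading acceptors that matched an exon start of GENCODE vM21 ended in AG, against 99.5% of 5074 other genes with at least 50 background insertions. In the 16 bases directly before the AG, the median share of pyrimidines was 81.2% in the Rik genes and 81.2% in those other genes. The window of 4930522L14Rik holds 50.0% pyrimidines, with 2 of the 86 genes lower, and that of E330021D16Rik 62.5%, while 1600014C23Rik holds 87.5% and 1810013L24Rik 93.8%.

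Most background insertions at the Rik genes lay upstream of the gene, at long range. The median distance to the assigned exon was 54337 bp over the 12239 background insertions of the 87 genes, compared with 36296 bp over the 809117 insertions of the 5087 other genes with at least 50. Only 14.9% of the Rik insertions lay within 10 kb of the exon, against 23.6% in those other genes, and 52.4% lay beyond 50 kb, against 40.7%. In 69 of the 87 genes (79.3%) more than 50% of the insertions fell upstream of the annotated gene, against 73.0% of those other genes. The assigned exon was exon 2 for 94.0% of insertions, against 84.3%. The 79 predicted genes named Gm with at least 50 background insertions lay near the Rik genes. More than 50% of the insertions fell upstream in 82.3% of them. The median over genes of the per-gene median distance was 45840 bp there, 45068 bp in the Rik genes and 31545 bp in the other genes. The leading exon began in coding sequence in 50 genes, in the 5′ UTR in 35 and after the stop codon in 1 (1110002E22Rik). The leading exon of 1700031L13Rik, a lincRNA in vM21, matched no coding model. The encoded proteins were short, with a median of 226 amino acids over 86 genes, 204.5 over 78 Gm genes and 493 over 5082 other genes. Those of the Rik genes ranged from 59 (4930558C23Rik) to 1786 (1110002E22Rik).

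**Figure D1:**
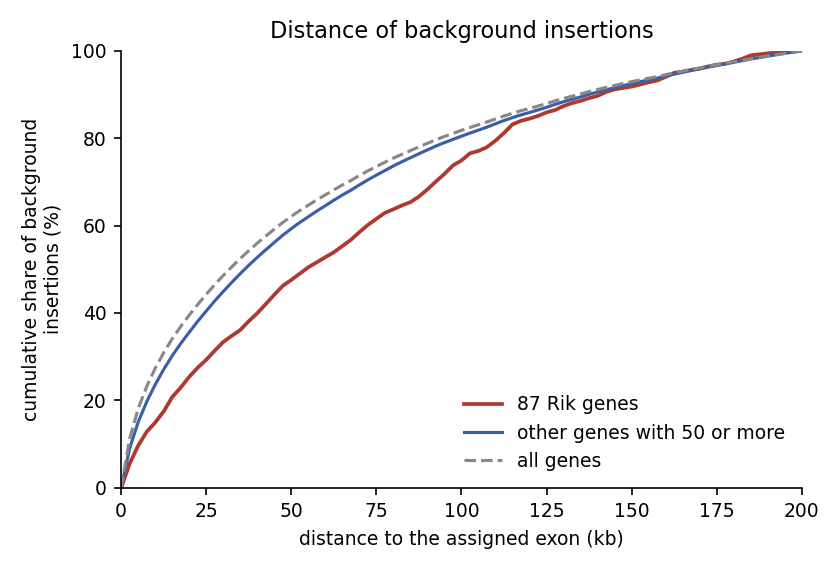
Cumulative share (%) of background insertions, pooled over the 6 unsorted libraries, against the distance (kb) to the assigned exon, for the 87 Rik genes, for the other genes with at least 50 background insertions and for all genes. The curve of the Rik genes lies below both others up to more than 100 kb, with a median distance of 54337 bp against 36296 bp in the other genes.

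Single genes departed from this pattern in both directions. E330021D16Rik (chr6:136400317-136415569, minus strand), annotated as ubiquitin-conjugating enzyme E2 Q2-like, had 606 background insertions, 97.7% of them more than 50 kb from exon 2. At 4930522L14Rik (chr5:109735990-109751886, minus strand) the median distance was 109229 bp and 96.1% of the 129 background insertions lay beyond 50 kb. By contrast, none of the 409 insertions at 5730522E02Rik (chr11:25602763-26210763, minus strand) lay upstream of this long gene, and their median distance was 143471 bp. At 4930432K21Rik (chr8:84148025-84172590, plus strand), the counterpart of human C19orf57 and known to act in meiotic recombination, 95.3% of the 64 insertions lay within 10 kb of the exon. Cc2d1a starts 89 bp from the start of 4930432K21Rik on the opposite strand, and 14 of the 87 genes (16.1%) have an opposite-strand protein-coding gene starting within 1 kb, against 12.1% of the other genes with at least 50.

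Background levels, expressed per 10000 insertions of a library, were highest at E330021D16Rik. E330021D16Rik had 5.76 ± 1.05 insertions per 10000 (SD, n = 6 unsorted libraries), with a lowest value of 4.07, a median of 5.75 and a highest of 7.01. 4930432M17Rik followed with 4.33 ± 0.285, and its lowest and highest libraries, 3.89 and 4.62, differed least among the leading genes. 5730522E02Rik had 3.88 ± 0.658, 1700016H13Rik 3.82 ± 0.607 and 1810013L24Rik 3.81 ± 0.870 insertions per 10000, so that these neighbours in the order do not differ beyond their spread. 1810013L24Rik is the counterpart of human C16orf72, which takes part in the cellular stress response. The 10 genes with the most insertions held 31.7% of all background insertions of the 87, and the median gene had 112.

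**Figure D2:**
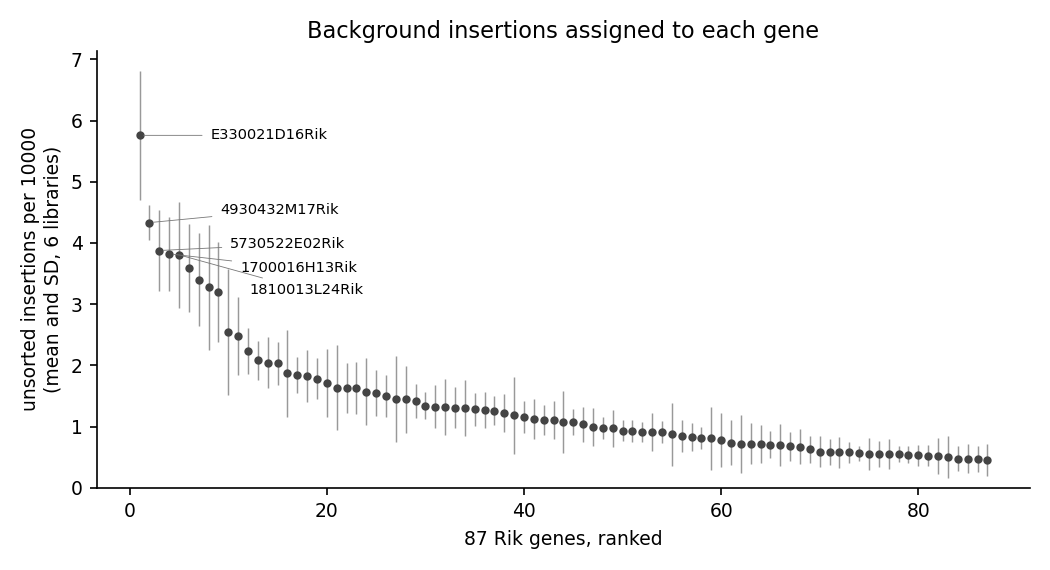
Insertions per 10000 in unsorted cells for the 87 Rik genes, ranked, as the mean (points) and SD (bars) of 6 libraries. E330021D16Rik stands at 5.76 and the next genes between 3.81 and 4.33, and levels decline from there to 0.452 at 1700001K19Rik.

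The share of each library that fell at the 87 genes was lower in activator and repressor sorted cells than in unsorted cells. It was 0.885% (95% Wilson interval 0.756 to 1.04) and 0.544% (0.437 to 0.677) in the activator sorted replicates, against 1.28% and 1.20% in the unsorted replicates. In the repressor screen the sorted replicates gave 0.539% (0.451 to 0.644) and 0.493% (0.394 to 0.618), and the unsorted replicates 1.16% and 1.23%. The PTGR sorted replicates gave 1.01% (0.934 to 1.09) and 1.10% (1.02 to 1.19), below the unsorted 1.13% and 1.21%. These intervals cover counting error only, and insertions amplified by PCR are not all independent events. The genes were chosen for high counts in the same unsorted libraries, so the shares are not independent of the choice, and its part in the difference was not tested. In addition, genes called as hits took 22.6% and 48.0% of the activator sorted insertions and 54.9% and 54.6% of the repressor sorted ones, which lowers the level of every other gene. With the called genes left out of both totals, the sorted over unsorted ratio of the Rik share was 0.870, 0.838 and 0.939 in the activator, repressor and PTGR screens. The same ratio for the other genes with at least 50 was 0.956, 0.937 and 0.955. For the Gm genes with at least 50 it was 1.05, 0.986 and 0.897.

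Enrichment was tested with a one-sided Fisher's exact test of the summed sorted against the summed insertions of all 6 unsorted libraries. Genes with at least 3 sorted insertions entered, and a gene was called a hit when its log2 odds ratio reached 1 and its adjusted p fell below 0.001. Across all tested genes the hits made up 4.64% of 2842 for the activator, 8.18% of 2346 for the repressor and 0.666% of 9303 for the PTGR screen. Of the 87 Rik genes, 30 could be tested in the activator screen and 0 were hits, 30 could be tested in the repressor screen and 1 was a hit, and 85 could be tested in the PTGR screen and 0 were hits. In the activator and PTGR screens 0 Rik genes had an unadjusted p below 0.05. The remaining genes had too few insertions: 8 had none and 49 had 1 or 2 in activator sorted cells, and 24 had none and 33 had 1 or 2 in repressor sorted cells. For the median Rik gene, with 112 background insertions, equal shares in sorted and unsorted cells correspond to 3.52, 4.11 and 13.1 sorted insertions in the activator, repressor and PTGR screens, so that a lack of enrichment is known less well in the first 2 screens than in the third.

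**Figure D3:**
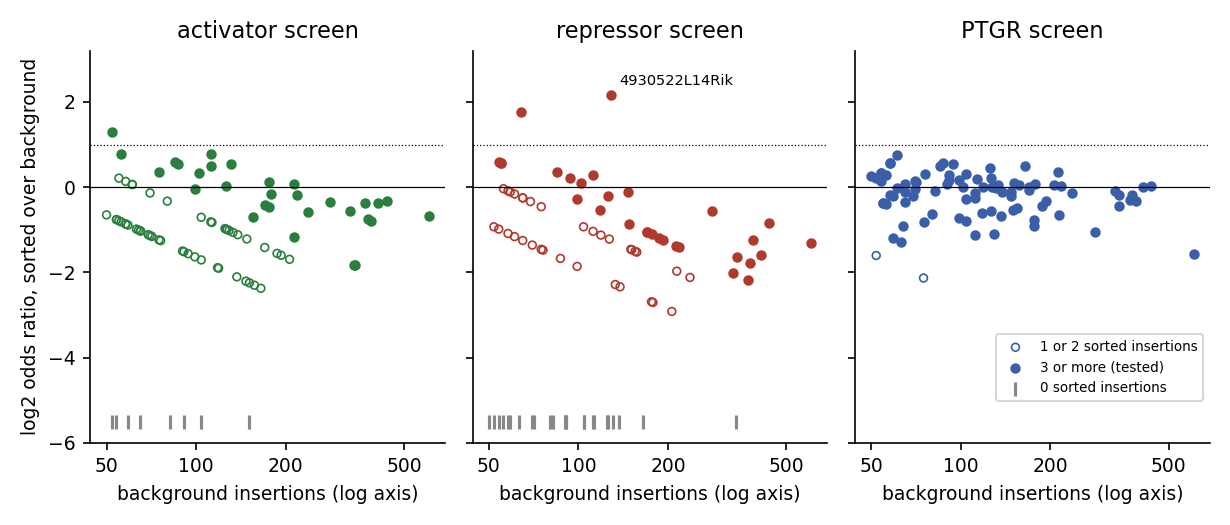
Log2 odds ratio of sorted over background insertions against the number of background insertions (log axis) for the 87 Rik genes in each screen. Filled points are genes with at least 3 sorted insertions, open points have 1 or 2, bars at the bottom have none, and the dotted line marks a log2 odds ratio of 1. 4930522L14Rik in the repressor screen, at 2.15, is the 1 hit.

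The hit, 4930522L14Rik, rose in the repressor screen. The gene encodes a protein of 666 amino acids that RefSeq names as a zinc finger protein, with 17 matches to the C2H2 zinc finger pattern. C2H2 zinc fingers are DNA-binding modules, and in many mouse zinc finger proteins they are joined to a KRAB domain that recruits the corepressor Trim28. Repressor sorted replicates 1 and 2 held 16 and 5 insertions and the unsorted replicates of that screen 27 and 28, which is 7.19 and 3.29 against 1.55 and 1.58 insertions per 10000. Both sorted values lie above both unsorted ones, although replicate 1 is more than 2-fold above replicate 2. In the other screens the gene had 1 and 1 (activator) and 3 and 4 (PTGR) sorted insertions, which is 0.492 to 0.683 per 10000. Sorted over background insertions gave a log2 odds ratio of 2.15 ± 0.34 (SE of counting error), and Fisher's exact test an adjusted p of 1.29e-06.

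The 21 sorted insertions of 4930522L14Rik lay at 21 different positions, of which 0 were shared between the replicates and 0 were found in an unsorted library. They were all assigned to exon 2, whose acceptor is the first window printed above and opens within the coding sequence. Their median distance was 101276 bp and none lay beyond 109427 bp, whereas 56 of the 129 background insertions lay more than 110 kb away. Between 100 and 110 kb before the exon there were 11 and 1 sorted insertions in replicates 1 and 2 and 62 background insertions. Between 50 and 90 kb there were 4 and 2 sorted insertions against 5 in the whole background. This split by distance was made after the positions were seen and was not tested.

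**Figure D4:**
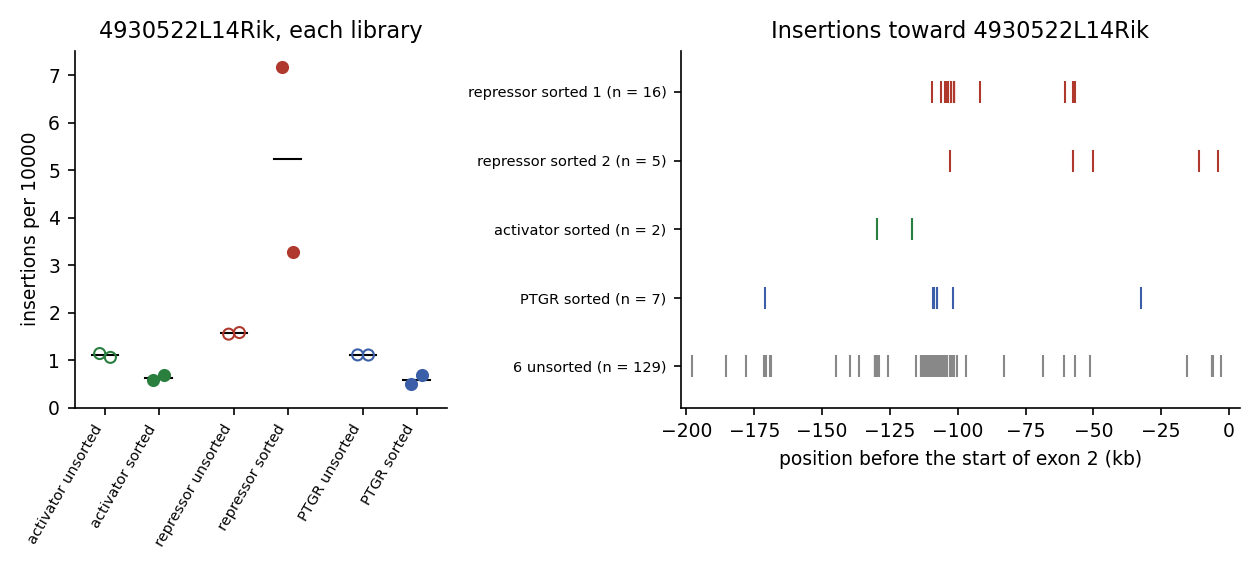
Left, 4930522L14Rik insertions per 10000 in each of the 12 libraries, with open circles for unsorted, filled circles for sorted and lines for the mean of 2. Right, each insertion (bar) by its position in kb before the start of exon 2. Repressor sorted cells reach 7.19 and 3.29 per 10000, all others stay at or below 1.58, and the 21 repressor sorted insertions lie within 109427 bp of the exon.

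A fit that uses the spread between replicates gave the same call. In edgeR's quasi-likelihood test of the 2 sorted against the 2 unsorted libraries of the screen, 4930522L14Rik had a log2 fold change of 2.14 (adjusted p = 0.000176). Among all 7688 genes tested there, 2.58% were called higher and 1.14% lower, with a median log2 fold change of -0.99 over all genes and -1.12 over the 87. The unsorted libraries of the screen had helped to choose the genes, so the repressor sorted libraries were also set against the 4 sorted libraries of the other screens. That fit kept genes with at least 10 insertions over the sorted libraries, which 4930522L14Rik reached only through its repressor sorted insertions. The comparison is therefore no independent support for the call. In it 4930522L14Rik had a log2 fold change of 3.60 (edgeR, adjusted p = 0.000169). It was the 1 of 70 Rik genes tested that was called higher, and 0 were called lower, where 3.71% of all genes were called higher and 0.755% lower. The same comparison called it lower in PTGR sorted cells (-2.76, adjusted p = 0.00713), where 2.24% of all genes were called lower, and the comparisons share sorted libraries. The sorting effect in the repressor screen exceeded that in the PTGR screen by 2.77 on the log2 scale (edgeR interaction term, adjusted p = 0.0263), where 0.929% of all genes were called higher. Against the activator screen the difference was 2.94 (adjusted p = 0.193), where 0.882% of all genes were called higher. The call rested on repressor sorted replicate 1: without it the log2 odds ratio was 1.38 (Fisher's exact test, adjusted p = 0.170) and the edgeR log2 fold change 1.21 (adjusted p = 0.546). It was also lost when only insertions within 50 kb were counted, since 19 of the 21 lie farther away, and in edgeR without a filter on low counts (adjusted p = 0.639).

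The other zinc finger member, 2610021A01Rik (chr7:41599230-41628533, plus strand), had 15 matches to the C2H2 pattern in a protein of 834 amino acids. It had 0 and 1 sense insertions in repressor sorted cells, 11 and 23 in the unsorted cells of the same screen, 3 and 1 in activator sorted and 5 and 10 in PTGR sorted cells. None of these comparisons passed a test. Of the 87 genes 2 (2.33% of those with a protein model) carried at least 3 zinc finger matches, against 2.64% of the other genes with at least 50.

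4930432K21Rik stood second in the repressor screen, and is described because of its value. Its 8 sorted insertions, at 8 positions within 10 kb of the assigned exons, were all in replicate 1, and replicate 2 had 0. The unsorted replicates held 11 and 14. The log2 odds ratio of 1.77 ± 0.54 missed the limit for a hit (Fisher's exact test, adjusted p = 0.0380). edgeR gave a log2 fold change of 1.87 (unadjusted p = 0.0123, adjusted p = 0.174), so the gene was not called after adjustment over all genes. The next genes with an insertion in both sorted replicates were G430095P16Rik, with 1 and 2 against 54 in the background (0.60 ± 0.86), and 1700017B05Rik, with 2 and 1 against 55 (0.57 ± 0.86), neither of which was called.

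1600014C23Rik (chr17:45732864-45733844, minus strand) was the 1 of 87 Rik genes that edgeR called lower in repressor sorted cells. Of all 7688 genes tested 1.14% were called lower, so 1 call in 87 is near that share. Both sorted replicates held 0 insertions, while the unsorted replicates held 44 and 57, or 2.87 ± 0.493 per 10000. Allowing 3 counts over both sorted libraries together, its level per library total was at least 3.59-fold lower. Called genes took 54.9% and 54.6% of these sorted libraries, which lowers the level of every other gene, and the bound is not corrected for this. edgeR with TMM gave a log2 fold change of -7.78 (adjusted p = 0.00693), which rests on 0 sorted insertions, against a median of -0.99 over all genes. The gene had been chosen in part for those unsorted counts, and against the sorted libraries of the other screens it was not called (adjusted p = 0.131). In activator sorted cells it had 2 and 1 insertions against 60 and 93 unsorted (edgeR log2 fold change -2.11, adjusted p = 0.169), and in PTGR sorted cells 12 and 17 against 63 and 22. The call was lost without either sorted replicate and without unsorted replicate 2, with adjusted p-values of 0.249, 0.255 and 0.115 in edgeR, and also without a filter on low counts (0.639) and within 50 kb (0.348).

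In the activator screen no Rik gene was called by edgeR in either direction, where 1.54% of 8000 genes were called higher and 0.1% lower. At an unadjusted p below 0.05 in edgeR there were 0 higher and 9 lower among the 87, where 160 of the 8000 genes were higher and 545 lower. DESeq2 called 0 of the 87 as well. The genes with the highest odds ratios had few insertions. A730049H05Rik had 1 and 3 sorted against 52 background insertions (log2 odds ratio 1.29 ± 0.75), 1500011B03Rik had 2 and 2 against 85 (0.58 ± 0.74) and 2610021A01Rik had 3 and 1 against 87 (0.55 ± 0.74). The adjusted p in Fisher's exact test was 0.762 for A730049H05Rik.

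In the PTGR screen, with its deeper sorted libraries, 85 genes were tested and their log2 odds ratios ran from -1.56 to 0.75 with a median of -0.09. edgeR called 0 of the 87 in either direction, where 0.342% of 8491 genes were called higher and 0 lower. At an unadjusted p below 0.05 in edgeR there were 0 higher and 1 lower among the 87, where 157 of the 8491 genes were higher and 137 lower. DESeq2 called 0 of the 87 as well. A830031A19Rik came highest, with 4 and 8 sorted against 61 background insertions (0.75 ± 0.46, adjusted p = 0.505 in Fisher's exact test). It was followed by 2610021A01Rik (0.56 ± 0.40) and 1700016K19Rik (0.56 ± 0.49), the gene of the protein LIAT1. The lowest was E330021D16Rik, with 10 and 14 sorted insertions or 1.64 and 2.39 per 10000, against 5.30 and 4.07 in the unsorted libraries. Its edgeR log2 fold change was -1.21 (unadjusted p = 0.00511, adjusted p = 0.869). A fit blocked on replicate number called it lower, at -1.21 with an adjusted p of 0.0359 in edgeR, and 0 of the 87 genes were called higher. That fit called 7 of all 8491 genes lower and 44 higher.

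Several Rik genes have a counterpart whose role has since been described, and none of the examples given here was called. They were picked for those roles after the values had been seen. 1600014C10Rik, the counterpart of human C19orf12, a mitochondrial membrane protein mutated in a neurodegenerative disease with brain iron accumulation, had 377 background insertions. Its sorted counts were 3 and 4 (activator), 1 and 3 (repressor) and 20 and 19 (PTGR), with a PTGR log2 odds ratio of -0.18 ± 0.24. 2700081O15Rik, the counterpart of C11orf95 (ZFTA), known from gene fusions in ependymoma, had 3 and 1, 2 and 2, and 11 and 6 sorted insertions against 126 in the background. Its log2 odds ratio in the activator screen was 0.02 ± 0.73. 4930447C04Rik, which encodes the synaptonemal complex protein SIX6OS1, had 1 and 0, 1 and 1, and 6 and 0 sorted against 58 background insertions. 2810006K23Rik, a mitochondrial peptide chain release factor homologue, had 1 and 0, 1 and 0, and 4 and 1 against 75. The last pair had too few activator and repressor sorted insertions to be tested.

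Some sorted insertions at the Rik genes had the same position as an insertion in another library. PTGR sorted replicate 1 shared 129 of its 616 Rik positions with PTGR unsorted replicate 1 and 3 with unsorted replicate 2, and sorted replicate 2 shared 51 of 644 with unsorted replicate 2 and 9 with unsorted replicate 1. In the activator screen the overlap was 11 of 154 and 17 of 80 with the unsorted library of the same number, and 2 and 1 with the other. In the repressor screen sorted replicate 1 shared 6 and 9 positions with unsorted replicates 1 and 2, and sorted replicate 2 shared 3 and 6. Repressor sorted replicates 1 and 2 shared 20 positions with each other, of 120 and 75. The repressor sorted insertions of 4930522L14Rik included none of these, and the part that shared positions play in the other values was not tested.

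Insertions on the other strand were then counted, by assigning each position to the nearest exon as though the cassette pointed the other way. Such reversed insertions cannot feed the exon they are assigned to and did not enter the choice of the genes. In the unsorted libraries the sense share of insertions at the 87 genes was 47.8% to 51.4%. In repressor sorted cells it was 18.4% (95% Wilson interval 15.6 to 21.6) and 13.7% (11.1 to 16.8), in activator sorted cells 42.0% and 33.8%, and in PTGR sorted cells 48.8% and 50.2%. Without the 5 genes named next, the sense share was 50.0% and 49.0% in the repressor sorted replicates and 48.6% and 44.8% in the activator sorted replicates. These 5 were picked because their reversed insertions were called in these same sorted libraries, so leaving them out raises the sense share by construction.

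In 67 of the 87 genes more than 50% of the reversed background insertions were assigned, in their own direction, to 1 partner gene, and in 15 more than 50% had no gene within 200 kb in their own direction. Of the 87 genes 5 were called for reversed insertions by the same Fisher's exact test. In the repressor screen these were E330021D16Rik, 2610021A01Rik and 1700031L13Rik, 3 of 28 Rik genes tested, where 5.61% of all genes were called. In the activator screen they were 1700016H13Rik and 2200002J24Rik, 2 of 42 tested, where 3.14% of all genes were called. In the PTGR screen 0 of 83 were called, where 0.5% of all genes were called and 4 Rik genes had an unadjusted p below 0.05.

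The reversed insertions at E330021D16Rik numbered 284 and 276 in repressor sorted cells and 208 and 172 in the unsorted cells of the screen, compared with 8 and 1 sense insertions in the sorted cells. The log2 odds ratio was 4.62 ± 0.08 against all 6 unsorted libraries and 4.07 against those of the same screen. All 560 sorted positions were assigned, in their own direction, to Atf7ip, a cofactor of the H3K9 methyltransferase SETDB1. Atf7ip was a hit in the repressor screen, with a log2 odds ratio of 4.34 ± 0.08. That test counts the same sorted insertions and is not independent of the reversed call, and the same holds for the partner hits given below. The insertions toward E330021D16Rik, which lie in the same upstream stretch and point the other way, were not enriched (log2 odds ratio -1.30 ± 0.48).

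2610021A01Rik had 135 and 111 reversed insertions in repressor sorted cells, 39 and 33 in the unsorted cells and 0 and 1 in the sense direction after sorting. The log2 odds ratio was 5.93 ± 0.16 against all 6 unsorted libraries and 5.27 against those of the same screen. Of the 246 sorted positions, 163 were assigned in their own direction to Gm6871 and 81 to AW146154, neighbouring genes with 11 and 12 C2H2 matches. On these same sorted insertions both were hits in the repressor screen, with log2 odds ratios of 5.01 ± 0.17 and 6.94 ± 0.38. Repressor sorted insertions in the stretch between this zinc finger Rik gene and its zinc finger neighbours therefore ran almost all in 1 direction.

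In the activator screen 1700016H13Rik, the counterpart of human C4orf36, had 34 and 47 reversed but 5 and 2 sense insertions in sorted cells, and the log2 odds ratio for reversed insertions was 2.85 ± 0.18. All 81 positions belonged to Aff1, a scaffold of the super elongation complex, in their own direction. Aff1 was a hit on these same sorted insertions (2.74 ± 0.18). At 2200002J24Rik there were 23 and 13 reversed against 1 and 0 sense insertions, with a log2 odds ratio of 2.87 ± 0.27. Of these 36, 25 were assigned to Kmt2b, an H3K4 methyltransferase, and 10 to Zbtb32, a BTB-domain zinc finger gene. Kmt2b, with 14 and 11 sorted insertions against 10 in the background, was a hit with a log2 odds ratio of 6.32 ± 0.54. Zbtb32, with 9 and 1 against 52, was a hit at 2.61 ± 0.50.

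1700031L13Rik differed from the other 4. It had 1 and 7 reversed insertions in repressor sorted cells against 33 in the background, and none of these positions had a gene within 200 kb in its own direction. The log2 odds ratio was 2.99 ± 0.57 (adjusted p = 0.000459 in Fisher's exact test). Against the unsorted libraries of its own screen alone it was 2.17 with an adjusted p of 0.0228 and no longer passed. edgeR on reversed insertions, a comparison added after the data were seen, called the other 4 genes and not this one, where 1.03% of all genes were called higher in the activator and 1.57% in the repressor screen. The log2 fold changes were 4.11 for E330021D16Rik, 5.31 for 2610021A01Rik, 2.63 for 1700016H13Rik and 2.80 for 2200002J24Rik.

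**Figure D5:**
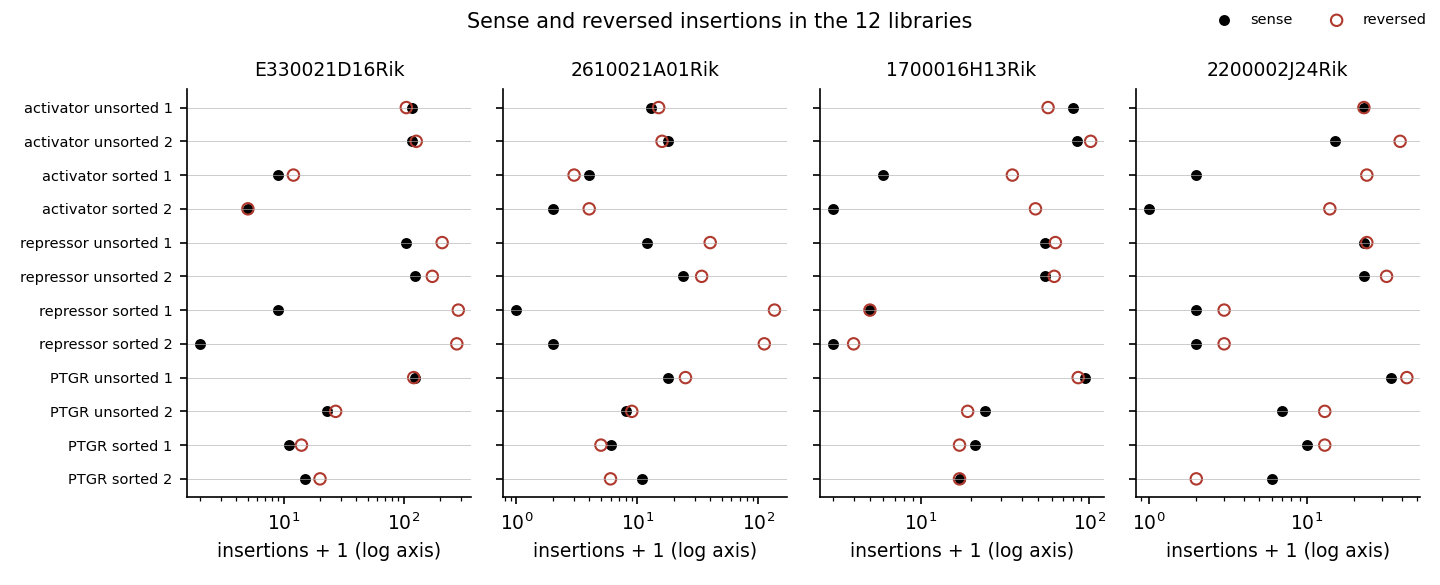
Sense (filled) and reversed (open) insertions plus 1, on log axes, at 4 Rik genes in each of the 12 libraries. In repressor sorted cells E330021D16Rik and 2610021A01Rik hold 111 to 284 reversed against 0 to 8 sense insertions, and in activator sorted cells 1700016H13Rik and 2200002J24Rik hold 13 to 47 reversed against 0 to 5 sense insertions.

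Genes with similar background were counted by the same test. Of the 79 predicted genes named Gm with at least 50 background insertions, 1, 5 and 1 were hits in the activator, repressor and PTGR screens. Of the 5087 other genes, 64 (1.26%), 112 (2.20%) and 38 (0.747%) were hits, against 0, 1 and 0 of the 87 Rik genes. Counts this small do not set the Rik genes apart from the others, and the Rik set had lost an activator hit by its definition. The median edgeR log2 fold changes of the Rik genes and the 5087 others were -0.96 and -0.77 in the activator, -1.12 and -1.02 in the repressor and -0.02 and -0.07 in the PTGR screen.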

How the data were processed

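The 87 genes, the gene lists and the tests were chosen with earlier results of these data known. Per the labels and the study's methods, the authors trimmed reads (Trim Galore 0.6.0), aligned them to mm10, filtered them with SAMtools 1.9 and linked every insertion with the closest downstream exon, first exons excepted, of a GENCODE vM25 protein-coding gene, with the strand as mapped and reversed. The deposited lists hold 1 position and a distance score in bp per line. The deposited table gave gene names and background counts, and the authors' log2 odds ratios and adjusted p-values in it were not used.

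Unique positions within 200 kb were counted by gene identifier. For all 87 genes, the background count equalled the deposited count. Repeated lines made this necessary: they touched 100% of positions in the repressor unsorted lists and 12.7% in PTGR sorted list 2. Replicates are numbered in the labels, and the study calls them biological replicates. Fisher's exact test (scipy 1.17.1) was adjusted by Benjamini-Hochberg over all tested genes. edgeR 4.0.16 used TMM, at least 10 insertions over the libraries of a fit (4 in the main fits) and an adjusted p below 0.05. DESeq2 1.42.0 was the alternative. Fisher's exact test and edgeR, but not DESeq2, were tested on simulated data. Of 100 genes given a 4-fold change there, Fisher's exact test called 41, 36 and 75 in the activator, repressor and PTGR screens. edgeR called 12, 16 and 22 of them. At a 16-fold change each test called at least 98 of 100 in every screen. Simulated sorted counts followed the background shares, without the large share that called genes took of the real activator and repressor sorted libraries. Genes reaching 3 sorted insertions numbered 3851, 4314 and 8491 there, against 2842, 2346 and 9303 in the data. The rates for the activator and repressor screens may therefore be too high for the data. Zinc finger matches (at least 3) came from translated GENCODE vM21 coding sequences, since no RefSeq protein table was used here. Gene positions are those of vM21 on GRCm38. Genes named are the hits and edgeR calls, the 5 with the highest background, the 3 highest odds ratios per screen with an insertion in both replicates, the 3 on each side of the limit, and zinc finger members. Any other is named with the reason. The alternatives tried were other backgrounds, distance limits, count minimums and normalizations, counting of every listed line, a replicate block and leaving out each library.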

Additional observations from a re-analysis of the deposited data

Results flagged for a closer look

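For 4930522L14Rik, the log2 fold change of sorting was 2.77 higher in the repressor than in the PTGR screen (edgeR interaction term, adjusted p = 0.0263), where 0.929% of 12809 genes were called higher in the repressor screen.

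In the 6 unsorted libraries 3 of the named genes had 1 library far from the other 5. A830031A19Rik reached 1.66 insertions per 10000 in PTGR unsorted replicate 2, from 9 insertions, and G430095P16Rik reached 0.924 in the same library, from 5. 1500011B03Rik reached 1.16 in activator unsorted replicate 2, from 24. Over all 87 genes there were 11 such values, where chance alone marks about 1 in 20 groups, and PTGR unsorted replicate 2 is the shallowest unsorted library.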

How the results depend on the processing

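The repressor hit count of 1 became 0 with a limit of 50 kb, 2 at an adjusted p below 0.05, and 0 to 1 with 1 library left out. It stayed 1 under every other Fisher setting run. The activator and PTGR counts of 0 did not move under any Fisher setting. edgeR calls higher in repressor sorted cells went from 1 to 0 without a filter on low counts and with a limit of 50 kb, and ranged from 0 to 2 with 1 library left out, the second gene being 4930432K21Rik without sorted replicate 2. Calls lower went from 1 to 4 on library totals without TMM, 2 with every listed line counted, and 0 without the filter, at 50 kb and against the sorted libraries of the other screens, and ranged from 0 to 1 with 1 library left out. Across all genes, repressor calls lower were 372 of 7688 without TMM and 115 of 10578 with every listed line counted. They were 0 of 16435 without the filter and 1 of 5649 at 50 kb. In the PTGR screen 0 became 1 against the other screens' sorted libraries, where 107 of 4771 genes were called lower. The gene was 4930522L14Rik (-2.76), which passed the count filter there only through its repressor sorted insertions. The PTGR count also became 1 with the replicate number as a block (E330021D16Rik, -1.21, edgeR adjusted p = 0.0359), where 7 of 8491 genes were called lower. The labels do not say that a number marks a shared transduction. Same-numbered libraries shared more positions at the 87 genes than others in the activator and PTGR screens, and in the repressor screen only sorted replicate 2 did. Their deviations from the group means correlated at 0.07 (activator), -0.02 (repressor) and 0.29 (PTGR), and the block changed no other count of calls among the 87. The mean share of sorted insertions at the 87 genes, 0.715% (activator), 0.516% (repressor) and 1.05% (PTGR), was 0.339% (repressor) and 0.768% (PTGR) at 50 kb, and 1.10% (activator) and 1.03% (repressor) without called genes. No called value changed sign. The PTGR median log2 fold change of the 87 genes, -0.02, was 0.04 with the block, 0.02 with at least 20 insertions, and 0.01 and 0.10 without unsorted replicate 1 and 2. At equal shares the median gene would have 3.52 activator and 4.11 repressor sorted insertions, close to the minimum of 3 for the test. The cause of these changes was not tested, except that fewer insertions remain at 50 kb.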
